A study of Rattus norvegicus with 24 samples.

Results

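The miR-7 family was followed in the miRNA sequencing of 2 rat brain nuclei, the PVN of the hypothalamus and the central nucleus of the amygdala (CEA). Its 4 rows in the table, rno-miR-7a-5p, rno-miR-7b, rno-miR-7a-1-3p and rno-miR-7a-2-3p, are 4 of 1098 miRNAs counted in all (703 known rat miRNAs and 395 predicted ones). The members were chosen by name, after their levels in the PVN and the CEA of these same libraries were known. The difference between the nuclei is therefore given as a description, without a test, and only the treatments were tested. All 4 members were found, and all 4 passed the filter of at least 1 count in every comparison.

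The rats were male Sprague–Dawley animals, 7 weeks of age when purchased and adapted for 1 week before the experiment. The normal control (NC) rats had no operation. The hepatectomy (HT) rats lost part of the left liver lobe under isoflurane, the HT + EA rats also received electroacupuncture through needles at ST 36 and SP 6 on 1 side, before and right after surgery, and the HT + SEA rats had the same needles without current (sham). Rats of every group, NC included, were held awake in a restraint device. Tissue was dissected 24 h after the last session, and 24 libraries were made, 3 from each of the 4 treatments in each nucleus. The labels give the tissue as brain and name the nucleus only in the sample titles. A rat gave too little tissue for all assays and the study took its brain samples from different animals of 1 batch. What libraries with the same replicate number share, within a nucleus or across the nuclei, is therefore not stated. The p-values rest on the spread between libraries, for the most part as pooled over all miRNAs.

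A microRNA is cut from a hairpin RNA, from the 5′ strand (5p) or the 3′ strand (3p), and pairs with target mRNAs mainly through its seed, bases 2 to 8. miR-7 is an old and strongly conserved miRNA, known for its high level in the pituitary, the pancreatic islets and neurosecretory cells of the hypothalamus. In the rat its 5p strand comes from several hairpins at different loci, and the 3p strands are the passenger strands that tell those hairpins apart. The PVN holds the neurons that make corticotropin-releasing hormone, oxytocin and vasopressin, and the CEA is an output nucleus of the amygdala.

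The mature sequences are shown because the reading of the counts rests on which of them can be told apart. They are given 5′ to 3′ from RefSeq on the GRCr8 assembly, with the seed in capitals.

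rno-miR-7a-5p: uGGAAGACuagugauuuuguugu

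rno-miR-7b: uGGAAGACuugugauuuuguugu

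rno-miR-7a-1-3p: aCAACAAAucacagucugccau

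rno-miR-7a-2-3p: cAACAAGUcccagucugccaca

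The 5p strands of miR-7a and miR-7b share the seed GGAAGAC and differ by 1 base of 23, A10U counted from the 5′ end. Of the 637 miRNAs of the table with a sequence in RefSeq, out of 703 known ones, these were the only 2 with that seed. The seed of miR-7a-1-3p was shared with miR-3065-5p, and that of miR-7a-2-3p with no other miRNA. The 3p strands end 1 base apart on their hairpins. When base 2 of miR-7a-1-3p was set against base 1 of miR-7a-2-3p, they differed at 3 of 21 positions.

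The hairpins show why the 5p reads cannot be assigned to a locus. Mature strands are in capitals.

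rno-mir-7a-1: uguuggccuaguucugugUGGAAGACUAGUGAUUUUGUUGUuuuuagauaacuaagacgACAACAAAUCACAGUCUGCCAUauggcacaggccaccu

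rno-mir-7a-2: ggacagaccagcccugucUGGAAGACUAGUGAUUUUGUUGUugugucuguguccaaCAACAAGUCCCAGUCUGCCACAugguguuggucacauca

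rno-mir-7b: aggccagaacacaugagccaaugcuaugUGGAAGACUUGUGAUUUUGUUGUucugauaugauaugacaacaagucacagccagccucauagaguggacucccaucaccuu

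The hairpin of rno-mir-7a-1 lies at chr17:6278692-6278788 on the + strand, within Hnrnpk, the gene of an RNA-binding protein, between Rmi1 and Qng1. That of rno-mir-7a-2 lies at chr1:142215800-142215894 on the + strand, within an uncharacterized lncRNA gene, between Det1 and Aen. That of rno-mir-7b lies at chr9:1167436-1167545 on the + strand, within the pseudogene Rpl35l3, between Dpp9 and Fem1a. The same 23 bases of miR-7a-5p stand in the hairpins on chromosomes 1 and 17, so its count is the sum over both loci, while miR-7a-1-3p and miR-7a-2-3p each come from 1 of them. No 3p strand of rno-mir-7b is among the members. How reads that match several miRNAs were counted is not given in the sources used here, so a share of the reads of miR-7a-5p and miR-7b may have been exchanged. No other row of the table had the same counts as a member.

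Between 6584345 and 14828269 reads were counted on miRNAs in the PVN libraries and between 9463321 and 14913564 in the CEA libraries. The PVN NC and HT groups, with median totals of 7364616 and 9276805, had fewer reads than the PVN libraries of HT + EA and HT + SEA (medians 13460699 and 13447863). Levels are given as CPM, counts scaled to a library total of 1000000. With 3 counts as the least that shows a miRNA, the limit is 0.456 CPM in the shallowest library, and the lowest count of any member was 96, so depth allowed each member to be read in each library. Intervals and limits of this kind cover counting error only. Every library ranked its miRNAs more like the other libraries of its own nucleus (median rank correlation of 0.982 or more) than like those of the other nucleus (0.968 or less), and replicates differed beyond counting noise in every group. An HT library stood apart in each nucleus. By the chi-square of the counts per degree of freedom, PVN HT replicate 3 lay at 295 and 227 from the other HT libraries of the PVN, which lay at 83.8 from each other, and its rank correlation with the other PVN libraries was the lowest of that nucleus (median 0.983). CEA HT replicate 1 lay at 1124 and 1333 from the other HT libraries of the CEA, against 395 between those, and had the lowest rank correlation of the CEA (median 0.986). In the CEA, HT + EA replicate 3 lay at 395 and 389 from its group, against 76.1 between the others, and HT + SEA replicate 3 at 540 and 843, against 369. The HT libraries that stood apart enter every comparison with HT. The changes of miR-7a-5p within a nucleus and many calls of the lists and markers are therefore also given without them.

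miR-7a-5p was the most abundant miRNA in all 12 PVN libraries. It took between 12.5% and 15.7% of all counts there (median 14.1%), with between 1032298 and 2052858 reads. In the CEA it took between 2.20% and 4.94% (median 3.33%) and ranked between 4th and 16th, with between 299087 and 707602 reads. The 95% Wilson interval of this share was at most 0.056 percentage points wide in any library, far below the difference between the nuclei and below the spread between replicates.

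The PVN NC libraries held 156781, 139684 and 141569 CPM of miR-7a-5p. The PVN HT libraries held 147614, 127472 and 125404 CPM. These values overlap, with HT replicate 1 above 2 of the 3 NC libraries. The PVN HT + EA libraries held 152508, 155592 and 137296 CPM. The PVN HT + SEA libraries held 147269, 124575 and 135481 CPM. The 4 PVN groups thus covered a narrow range, and the highest library was 1.26 times the lowest.

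The CEA NC libraries held 42471, 21968 and 29146 CPM of miR-7a-5p. The CEA HT libraries held 25770, 46992 and 25001 CPM. Within each of these groups 1 library stood well above the other 2. The CEA HT + EA libraries held 41079, 38047 and 33968 CPM. The CEA HT + SEA libraries held 49399, 32636 and 31694 CPM. The highest CEA library was 2.25 times the lowest, and the SD of log2 levels within groups was 0.40 in the CEA against 0.11 in the PVN.

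**Figure D1:**
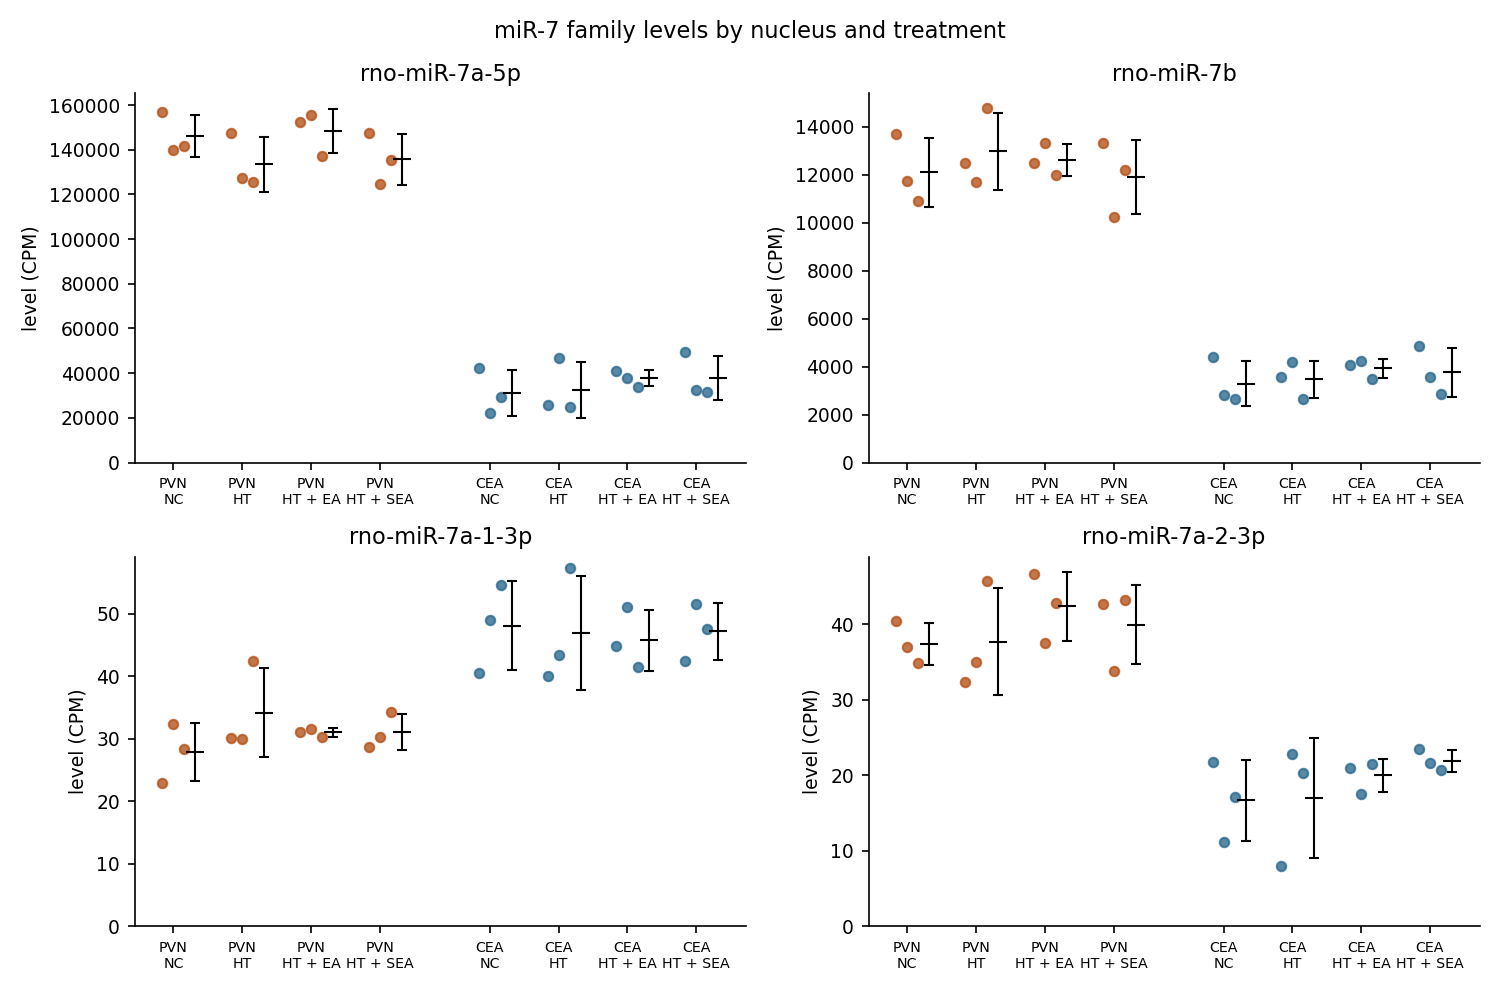
Level in CPM (y axis, from 0) of the 4 members in each library by nucleus and treatment (x axis). Points are libraries, and the bar beside them is the mean with the SD (n = 3). miR-7a-5p, miR-7b and miR-7a-2-3p stand higher in all 12 PVN libraries than in any CEA library, and miR-7a-1-3p is higher in the CEA, with ranges that overlap.

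Ordered by group mean, miR-7a-5p was highest in the PVN HT + EA group, at 148465 ± 9795 CPM (SD, n = 3). It was followed by the PVN NC group (146011 ± 9374), the HT + SEA group (135775 ± 11350) and the HT group (133497 ± 12270). The CEA groups came next, with HT + SEA at 37910 ± 9961, HT + EA at 37698 ± 3568, HT at 32588 ± 12481 and NC at 31195 ± 10404. Neighbours in this order differed by less than or about 1 SD, except at the step from the PVN to the CEA.

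Over all libraries the mean log2 level of miR-7a-5p was 2.06 higher in the PVN than in the CEA, a 4.16-fold difference. In the NC rats the difference was 2.28 on the log2 scale, after HT 2.09, after HT + EA 1.98 and after HT + SEA 1.87. Among the 364 known miRNAs with a mean of at least 10 CPM over the 24 libraries, it ranked 14th by this log2 difference. By the difference in CPM it ranked 1st of all 703 known miRNAs. No PVN library overlapped a CEA library. Of all 1098 miRNAs, 82 (7.47%) stood higher in all 12 PVN libraries than in any CEA library, and 3 of the 4 members were among them. Since the members were selected on this contrast, the count is a description. In bulk tissue, fewer cells of a type and less RNA per cell cannot be told apart.

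miR-7b, the other bearer of the GGAAGAC seed, followed miR-7a-5p at a lower level. It held between 10244 and 14770 CPM in the PVN (median 12340, between 80347 and 177902 reads) and between 2656 and 4880 CPM in the CEA (median 3569). The nuclei did not overlap, and the log2 difference was 1.80, or 3.49-fold. By treatment it lay between 1.69 and 1.92. Together the 5p strands made up between 13.5% and 17.0% of all counts in the PVN and between 2.48% and 5.43% in the CEA. For every 100 reads of miR-7a-5p there were between 7.71 and 11.8 reads of miR-7b in the PVN and between 8.90 and 13.9 in the CEA, ranges that overlap. PVN HT replicate 3 had the highest ratio of the PVN, 11.8, and joined a low level of miR-7a-5p there with the highest level of miR-7b.

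The 3p strands were rare and parted by locus. miR-7a-2-3p, the passenger of the hairpin on chromosome 1, held between 32.3 and 46.7 CPM in the PVN (median 39.0, between 257 and 636 reads) and between 7.91 and 23.5 CPM in the CEA (median 20.9, between 96 and 337 reads). Its nuclei did not overlap, with a log2 difference of 1.11 (2.15-fold). miR-7a-1-3p, the passenger of the hairpin within Hnrnpk, held between 22.9 and 42.4 CPM in the PVN (median 30.3) and between 40.1 and 57.4 CPM in the CEA (median 46.2). It was thus lower in the PVN, by 0.60 on the log2 scale (1.52-fold), and its nuclei overlapped. The direction of miR-7a-1-3p goes against a name that ties the whole family to the neuroendocrine hypothalamus.

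Within each treatment the directions were the same. The log2 difference of miR-7a-2-3p was 1.22 in NC, 1.27 after HT, 1.08 after HT + EA and 0.86 after HT + SEA. That of miR-7a-1-3p was -0.79 in NC, -0.46 after HT, -0.56 after HT + EA and -0.60 after HT + SEA.

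The share of miR-7a-2-3p among the reads of both 3p strands parted the nuclei with no overlap. In the PVN it lay between 51.7% (284 of 549 reads, 95% Wilson interval 47.6 to 55.9%) and 63.8% (266 of 417 reads, 59.1 to 68.3%). In the CEA it lay between 16.5% (96 of 583 reads, 13.7 to 19.7%) and 35.7% (337 of 945 reads, 32.7 to 38.8%). miR-7a-2-3p had the larger count of the 3p strands in each PVN library and miR-7a-1-3p in each CEA library, though the Wilson interval of 5 of the 12 PVN libraries includes equal shares. This ratio is taken within a library and does not depend on how libraries are scaled.

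The 3p strands summed differed little between the nuclei. Their sum was between 62.5 and 88.2 CPM in the PVN (median 69.3) and between 48.0 and 77.7 CPM in the CEA (median 66.1), and the medians stood at a ratio of 1.05. The number of miR-7a-5p reads for each 3p read, all from the miR-7a hairpins, was between 1421 and 2476 in the PVN and between 322 and 749 in the CEA, with no overlap and a ratio of medians of 3.69. Neither 3p strand nor their sum rose between the nuclei as much as miR-7a-5p did. miR-7b is not in this ratio, and small RNA libraries can favour some sequences, so the size of the ratio within a nucleus is not a ratio of molecules.

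**Figure D2:**
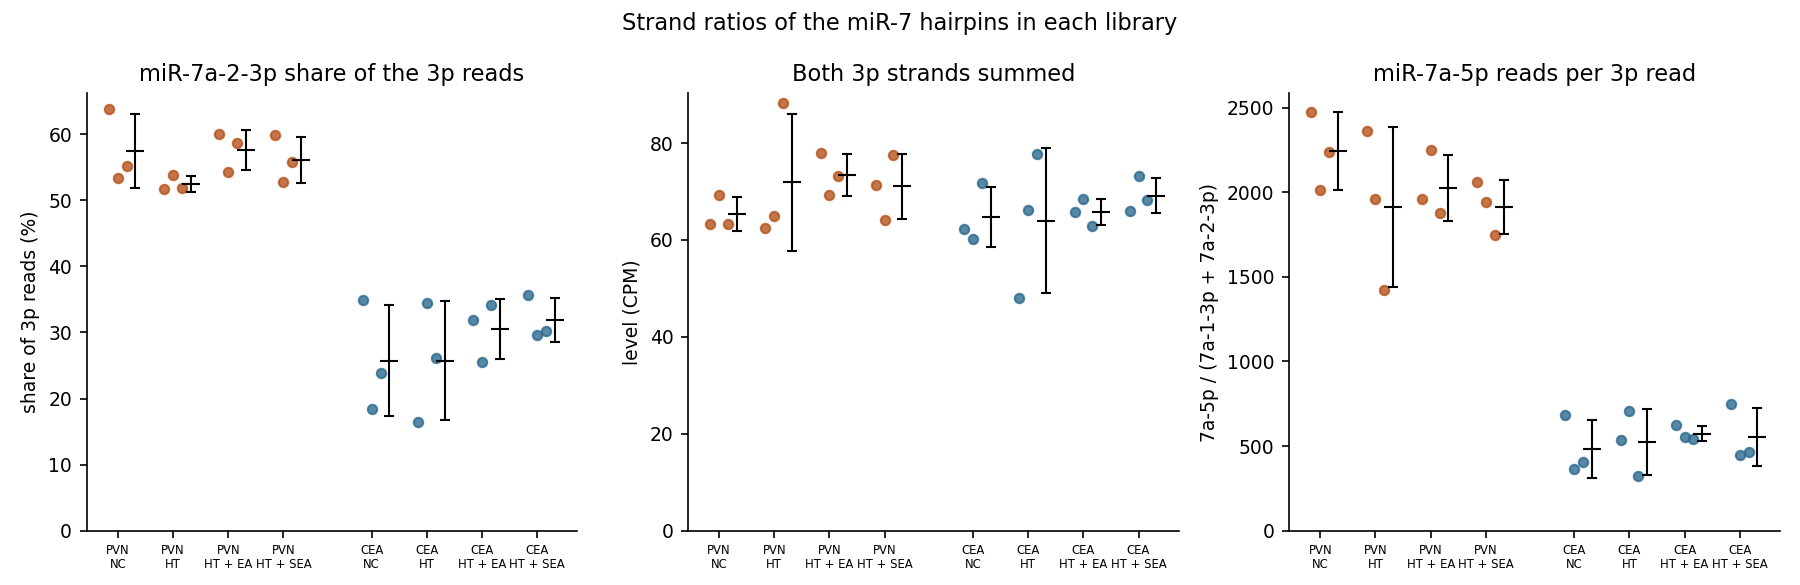
Share of miR-7a-2-3p among the reads of both 3p strands in percent (left), the summed level of both 3p strands in CPM (middle) and the number of miR-7a-5p reads for each 3p read (right), by nucleus and treatment (x axis). Points are libraries and bars the mean with the SD (n = 3). The share and the ratio of miR-7a-5p to the 3p strands part all 12 PVN from all 12 CEA libraries, and the 3p sum does not.

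The treatments were compared with edgeR's quasi-likelihood test within each nucleus, on the 6 libraries of the 2 groups. The study used an unadjusted p to call miRNAs. The same is done here, at a threshold of 0.05, and the Benjamini-Hochberg adjusted p is over all miRNAs tested. With no replicate block, no member was called in any of the 8 comparisons (0 of 32 tests of a member in a comparison, with unadjusted p of 0.073 or more and adjusted p of 0.49 or more). DESeq2 called no member either. Over all miRNAs the share called was 10.9% for HT against NC in the PVN, 11.4% for HT + EA against HT, 8.30% for HT + SEA against HT and 7.14% between HT + EA and HT + SEA. In the CEA these shares were 3.82%, 5.28%, 4.70% and 2.24%. A p that misses the threshold does not show that the levels were alike. The intervals give what the data allow under a spread estimated mostly from all miRNAs.

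In the PVN, the log2 fold change of miR-7a-5p after HT against NC was -0.16 (standard error 0.096, 95% interval -0.35 to 0.03). Its unadjusted p was 0.099 and its adjusted p 0.64 from edgeR's test. The interval leaves out a fall below 0.787 of the NC level. This value was close to the threshold, and other settings called it: with all 12 PVN libraries in the fit the change was -0.19 (adjusted p = 0.33 by edgeR), without NC replicate 3 -0.18 (adjusted p = 0.45 by edgeR), and without HT replicate 1 -0.28 (adjusted p = 0.15 by edgeR). Without HT replicate 3, which stood apart, it was -0.12 and not called. Over all alternatives the adjusted p was 0.15 or more. The change of miR-7b was 0.06 (standard error 0.116, 95% interval -0.17 to 0.29).

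After EA the PVN level of miR-7a-5p was higher than after HT alone by 0.18 on the log2 scale (standard error 0.096, 95% interval -0.02 to 0.38) (adjusted p = 0.49 by edgeR). HT and HT + EA libraries with the same replicate number deviated together in this comparison, and a fit that blocked on the replicate number gave a change of 0.19 (adjusted p = 0.23 by edgeR), which is called. Without HT replicate 1 it was 0.31 (adjusted p = 0.035 by edgeR), and without HT + EA replicate 3 it was 0.20 (adjusted p = 0.47 by edgeR). Without HT replicate 3 it was 0.10 and not called. Over all alternatives the adjusted p was 0.035 or more. The same 3 HT libraries stand in this comparison and in HT against NC, so a low level in them shows in each with opposite signs. miR-7a-2-3p was called in this comparison only when HT replicate 3 was left out, with 0.32 (adjusted p = 0.25 by edgeR) against 0.21 with all libraries.

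For HT + SEA against HT the change of miR-7a-5p in the PVN was 0.03 (95% interval -0.16 to 0.22), or -0.055 without HT replicate 3, and between HT + EA and HT + SEA it was 0.12 (95% interval -0.07 to 0.31). Over the 4 PVN comparisons miR-7b changed by between -0.11 and 0.07, with intervals from -0.32 at the lowest to 0.29 at the highest. The rarer miR-7a-1-3p changed by between -0.12 and 0.25 and miR-7a-2-3p by between -0.03 and 0.21, with intervals reaching from -0.46 to 0.67 and from -0.44 to 0.54. Leaving out 1 library, miR-7a-1-3p ranged from 0.073 to 0.371 for HT against NC and from -0.182 to 0.036 for HT + EA against HT. miR-7a-2-3p then ranged from -0.184 to 0.040 and from 0.134 to 0.324.

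In the CEA the changes of miR-7a-5p were 0.11 for HT against NC, 0.08 for HT + EA against HT, 0.13 for HT + SEA against HT and -0.04 between HT + EA and HT + SEA. Their standard errors were between 0.152 and 0.195 against 0.092 to 0.096 in the PVN, and their intervals reached from -0.35 to 0.52. For HT against NC the standard error of 0.173 rests on the spread of all miRNAs alone. The log2 levels of miR-7a-5p itself had an SD of 0.40 within CEA groups, so that interval may be too narrow. Same-numbered libraries also deviated together in HT against NC of the CEA, and there a block on the number gave 0.11, not called. The comparison of HT with NC turned on 1 library. Without CEA NC replicate 1, whose level was the highest of its group, miR-7a-5p was called at 0.42 (adjusted p = 0.62 by edgeR) and miR-7b at 0.44 (adjusted p = 0.62 by edgeR), against 0.16 for miR-7b with all libraries. Without CEA HT replicate 2, the highest of the HT group, the change of miR-7a-5p was -0.13. Without CEA HT replicate 1, which stood apart, the changes of miR-7a-5p were 0.17 for HT against NC, 0.02 for HT + EA against HT and 0.07 for HT + SEA against HT, none of them called. miR-7a-1-3p changed in the CEA by between -0.18 and 0.03 and miR-7a-2-3p by between -0.16 and 0.31.

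**Figure D3:**
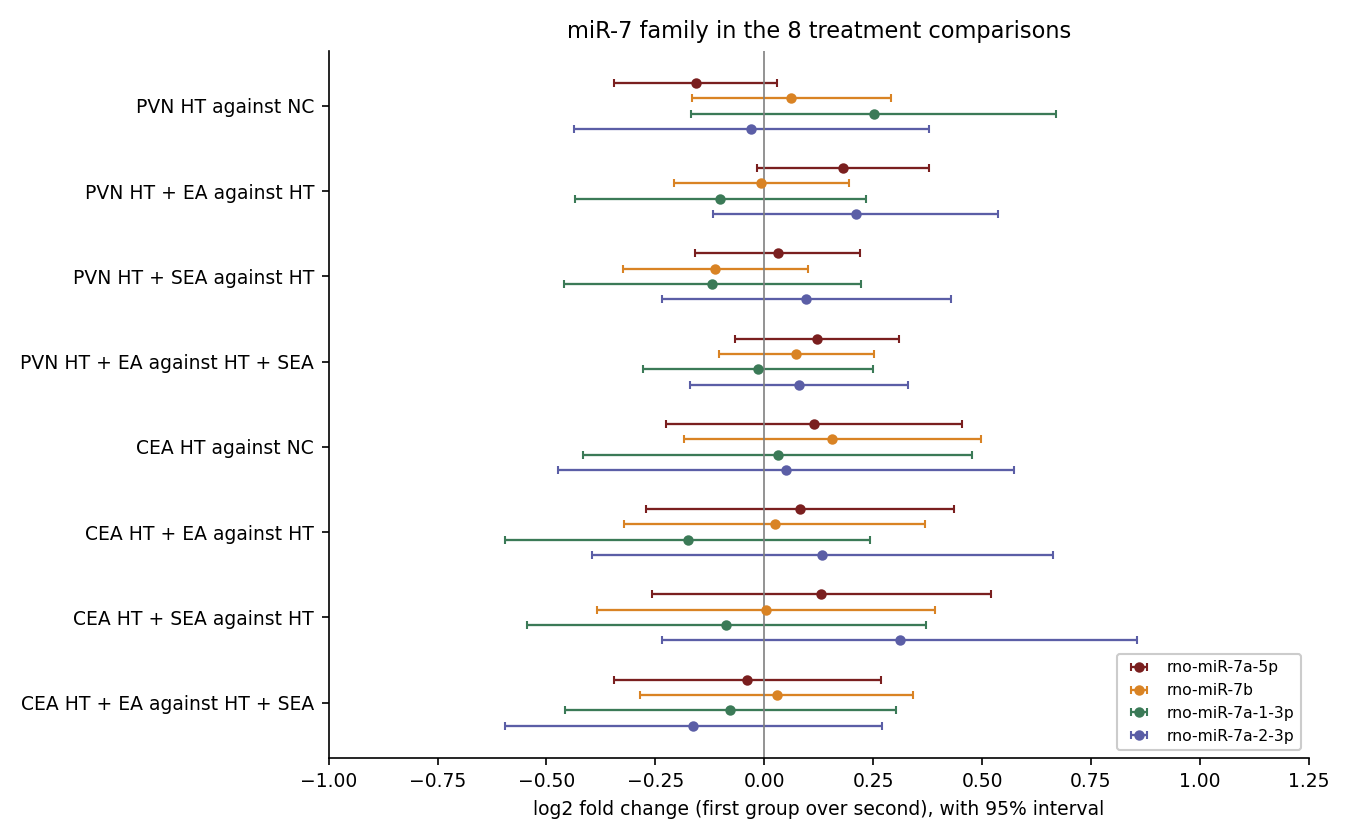
Log2 fold change (x axis, first group over second) of the 4 members in each of the 8 treatment comparisons (y axis). Bars are 95% intervals from edgeR's fit without a replicate block. Each of the 32 intervals includes 0, and those of miR-7a-5p and miR-7b are narrower in the PVN than in the CEA.

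The difference of a treatment effect between the nuclei was tested as an interaction over 12 libraries. No member was called in the 3 interactions (0 of 12, adjusted p of 0.98 or more by edgeR, and none by DESeq2), where 4.98% of all miRNAs were called for HT against NC, 1.90% for HT + EA against HT and 2.66% for HT + SEA against HT. The largest was that of miR-7a-5p for HT against NC, with an effect in the PVN lower than in the CEA by 0.34 on the log2 scale (95% interval -0.78 to 0.10). It was called without CEA NC replicate 1, at -0.59 (adjusted p = 0.34 by edgeR), and without CEA HT replicate 3, at -0.49 (adjusted p = 0.56 by edgeR).

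Within a nucleus the members deviated from their group means partly together. In the CEA, over 12 libraries, deviations of miR-7a-5p went with those of miR-7b (Pearson's r = 0.83, Spearman's rho = 0.75, and r = 0.81 without the 2 libraries of the most extreme miR-7a-5p level) and of miR-7a-2-3p (r = 0.62, rho = 0.59, 0.57 without those 2). They ran against those of miR-7a-1-3p (r = -0.48, rho = -0.42, -0.44 without those 2). In the PVN the relation was looser with miR-7b (r = 0.51, rho = 0.45, 0.67 without those 2), near 0 with miR-7a-2-3p (r = -0.01, rho = 0.03, -0.02 without those 2) and again negative with miR-7a-1-3p (r = -0.50, rho = -0.34, -0.48 without those 2). The strand of the chromosome 1 hairpin thus followed miR-7a-5p in the CEA and that of the Hnrnpk hairpin in neither nucleus. These correlations are descriptions over libraries that share depth and dissection, and reads exchanged between miR-7a-5p and miR-7b would add to the first.

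The CEA libraries with much miR-7a-5p were also those that resembled the PVN in their other miRNAs. Likeness was taken as the median rank correlation of a CEA library with the 12 PVN libraries over 362 miRNAs, the members left out. It lay between 0.945 and 0.951 in the 4 CEA libraries with the lowest miR-7a-5p (NC replicates 2 and 3 and HT replicates 1 and 3, at 21968 to 29146 CPM) and between 0.958 and 0.968 in the other 8 (31694 to 49399 CPM). Over the 12 libraries the log2 level of miR-7a-5p went with this likeness (r = 0.91, rho = 0.87, and r = 0.85 without the 2 libraries of the most extreme likeness). For miR-7b the values were r = 0.77 and rho = 0.73 (0.90 without those 2), for miR-7a-2-3p r = 0.76 and rho = 0.80 (0.53 without those 2), and for miR-7a-1-3p r = -0.42 and rho = -0.40 (-0.86 without those 2). In the PVN the likeness to the CEA libraries did not go with miR-7a-5p in this way (r = -0.37, rho = -0.20, -0.03 without those 2). miR-653-5p, whose pattern was nearest to that of miR-7a-5p, had as strong a relation with the likeness in the CEA (r = 0.92, rho = 0.80, 0.93 without those 2). The part of this likeness in the CEA treatment comparisons was not tested.

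Of 360 known miRNAs compared, rno-miR-653-5p had the pattern most like that of miR-7a-5p, by Spearman's rho over all 24 libraries (0.93) and over deviations from group means (0.85). miR-653-5p held between 328 and 599 CPM in the PVN and between 13.0 and 93.1 CPM in the CEA, a log2 difference of 3.42. Its deviations went with those of miR-7a-5p within the CEA (r = 0.88, rho = 0.89, 0.87 without the 2 most extreme), where each also went with the likeness to the PVN, and within the PVN (r = 0.68, rho = 0.68, 0.52 without the 2 most extreme). Next by level over 24 libraries came miR-344b-5p (rho = 0.91), miR-298-5p (0.91), miR-6331 (0.90) and miR-344a-3p (0.90). Over deviations they were miR-344a-3p (0.67), miR-298-5p (0.66), miR-598-3p (0.64) and miR-298-3p (0.62). Any miRNA that is higher in the PVN scores well over 24 libraries, which fall into the 2 nuclei.

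**Figure D4:**
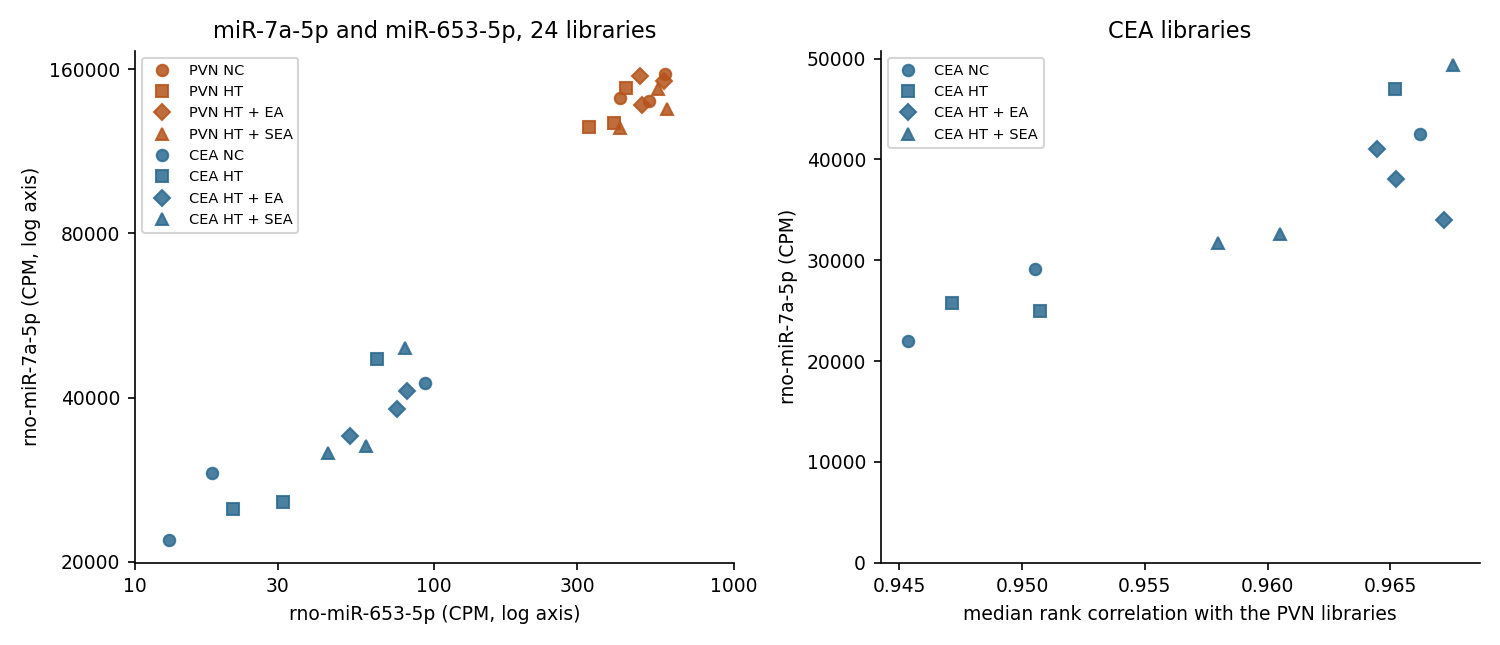
Left, level of miR-7a-5p (y axis, CPM, log axis) against miR-653-5p (x axis, CPM, log axis) in the 24 libraries, and right, miR-7a-5p (y axis, CPM) in the 12 CEA libraries against their median rank correlation with the PVN libraries over 362 other miRNAs (x axis). Colours mark the nucleus and symbols the treatment. The 4 CEA libraries of the lowest miR-7a-5p, up to 29146 CPM, also have the lowest rank correlations, 0.945 to 0.951.

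The known partners of miR-7 could be followed only in part. Cdr1as, a circular RNA that binds miR-7, and its cleaving miRNA miR-671 form a circuit with miR-7, and circRNA libraries were not analysed here. Of the 3 miR-671 names looked for, 1 was in the table. rno-miR-671 held between 13.5 and 24.3 CPM in the PVN and between 14.5 and 21.6 CPM in the CEA, so its nuclei overlapped widely where those of miR-7a-5p did not. It was called in 0 of the 8 comparisons, with log2 changes in the PVN of -0.20 after HT, 0.27 after HT + EA and 0.28 after HT + SEA, the last 2 against HT. Without PVN HT replicate 3 these changes were -0.045, 0.075 and 0.082.

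Among 6 miRNAs tied to stress or peptide hormone release, miR-375-3p, an islet and pituitary miRNA like miR-7, also stood apart by nucleus, with 76.4 to 140 CPM in the PVN and 2.88 to 36.4 in the CEA. miR-24-3p stood apart in the other direction, with 1887 to 2356 CPM in the PVN and 2557 to 3705 in the CEA. miR-124-3p, miR-132-3p, miR-212-3p and miR-18a-5p had higher medians in the CEA, with ranges that overlap. With all libraries, miR-375-3p was the only 1 of the 6 called after HT in the PVN, where its log2 level fell by 0.47 (adjusted p = 0.19 by edgeR). That call was lost without NC replicate 1 (-0.32) and without HT replicate 2 (-0.45). Without HT replicate 3, miR-132-3p was called lower as well. After EA miR-375-3p was higher than after HT by 0.31 (adjusted p = 0.42 by edgeR), which was not called without HT replicate 2 or without HT + EA replicate 1 or 3 (0.21 to 0.30).

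miR-18a-5p, a miRNA known to target the glucocorticoid receptor, was rare in the PVN, with a median of 1.52 CPM. Its PVN HT libraries held 1.59, 1.40 and 5.70 CPM, or 14, 13 and 63 reads, and the other 9 PVN libraries 1.04 to 2.53 CPM. HT replicate 3 alone was high. The level was called lower with EA than after HT by a log2 change of -0.95 (adjusted p = 0.33 by edgeR) and with SEA by -1.27 (adjusted p = 0.32 by edgeR). Without HT replicate 3 these changes were -0.04 and -0.36, and neither was called. The calls were also lost without HT + EA replicate 3 in the first (-0.93) and without HT + SEA replicate 1 or 3 in the second (-1.22 and -1.18).

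In the CEA the activity-induced miR-132-3p was called higher after HT than in NC by 0.39, and lower than after HT by 0.39 with EA and 0.57 with SEA (adjusted p between 0.53 and 0.99 by edgeR). The cotranscribed miR-212-3p was called lower with SEA, by 0.59 (adjusted p = 0.53 by edgeR). These calls turned on CEA HT replicate 1. Without it the changes of miR-132-3p were 0.05, -0.06 and -0.23 and that of miR-212-3p was -0.29, none of them called. The call after HT was also lost without NC replicate 3, that with EA without HT + EA replicate 2 or 3, and those with SEA without HT + SEA replicate 1 or 3. With all libraries, no other change of the 6 was called in the 8 comparisons. The median log2 change of the 6 after HT in the PVN was -0.04, beside -0.01 over all miRNAs tested. Without PVN HT replicate 3 the median of the 6 was -0.26.

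Markers of other cells moved between some of the groups in which miR-7a-5p was close to the threshold. Of 9 miRNAs of pituitary and epithelium, miR-375-3p among them, 7 were called lower after HT than in NC in the PVN (median log2 change -0.87, beside -0.01 over all miRNAs), and 7 were called higher after HT + EA than after HT (median 0.75, beside 0.02). After HT + SEA 5 of the 9 were called higher than after HT (median 0.64, beside 0.02), while miR-7a-5p changed by 0.03. Their summed level was 164 to 265 CPM in the PVN NC libraries, 118 to 150 in HT, 149 to 241 in HT + EA and 166 to 203 in HT + SEA, and none of the 9 was at 0 in any group. In the CEA the sum was 27.0 to 93.8 CPM. Of 5 miRNAs of ciliated ependyma and choroid plexus found, 2 were called lower after HT in the PVN and 0 were called after HT + EA against HT, with sums of 3251 to 4101 CPM in NC, 2371 to 2675 in HT, 2513 to 2840 in HT + EA and 2854 to 3194 in HT + SEA, where 2 were called higher than after HT. Of 3 muscle miRNAs, 2 were called lower after HT (median -0.62), with sums of 44.0 to 109 CPM in NC and 20.5 to 30.6 in HT. miR-206-3p was called higher after HT + EA than after HT and miR-1-3p lower after HT + SEA than after HT. Of 3 oligodendrocyte miRNAs, 1 was called higher after HT, and after HT + EA against HT 2 were called lower and 1 higher (median -0.43), with sums of 2517 to 2691 CPM in HT and 2547 to 3236 in HT + EA. Of these 3, miR-338-3p was called lower after HT + SEA than after HT. The myeloid miR-223-3p, 1 of 3 markers, was called lower after HT than in NC, and higher after HT + EA and after HT + SEA than after HT. Of 3 red cell markers miR-451-5p was called lower after HT and miR-144-3p lower after HT + EA than after HT. Of the 5 neuron markers, miR-128-3p and miR-138-5p were called higher after HT and lower after HT + EA and after HT + SEA than after HT. Between HT + EA and HT + SEA 1 marker each of oligodendrocytes, red cells and ciliated cells was called lower, 1 of muscle higher, and of myeloid cells 1 higher and 1 lower. Without HT replicate 3 the counts for pituitary and epithelium were again 7, 7 and 5 of 9. They were 4 after HT without NC replicate 2 and 2 after HT + EA without HT + EA replicate 2. Without HT replicate 3 those called lower after HT and higher after HT + SEA among the ciliated markers were 3 and 3. Not called without it were miR-138-5p after HT and after HT + SEA, miR-338-3p after HT + SEA, and miR-206-3p after HT + EA, while miR-1-3p was called lower after HT + EA and miR-124-3p higher after HT + SEA. None of these markers was at 0 throughout a group of either nucleus. Deviations of miR-375-3p went with those of miR-7a-5p in the PVN (r = 0.64, rho = 0.56, 0.56 without the 2 most extreme) and less in the CEA (r = 0.23, rho = 0.13, 0.53 without the 2 most extreme). The part of these cells in the levels of miR-7a-5p was not tested.

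In the CEA markers of other cells moved in the same comparisons as miR-132-3p. Of the 5 of ciliated ependyma and choroid plexus, 3 were called lower after HT (median log2 change -0.52, beside -0.02 over all miRNAs), 0 after HT + EA against HT (median 0.54, beside 0.01), and 4 were called higher after HT + SEA than after HT (median 0.88, beside 0.02). Their sums were 448 to 1156 CPM in NC, 196 to 999.9 in HT, 611 to 863 in HT + EA and 475 to 1173 in HT + SEA, ranges that overlap. Of the 3 red cell markers, miR-144-3p and miR-451-5p were called lower after HT, miR-144-3p lower after HT + EA than after HT, and miR-451-5p higher after HT + SEA than after HT. miR-223-3p was called lower after HT and higher after HT + EA and HT + SEA than after HT, as were miR-200a-3p and miR-200b-3p of the 9 of pituitary and epithelium. The muscle miR-206-3p was called lower after HT and higher after HT + SEA, the oligodendrocyte miR-219a-5p lower after HT and after HT + EA against HT, and the neuronal miR-128-3p lower after HT + EA than after HT. Between HT + EA and HT + SEA 2 red cell markers and 1 each of ciliated, myeloid, muscle and oligodendrocyte cells were called lower. Without CEA HT replicate 1 the ciliated markers called were 1 of 5 lower after HT (median -0.20) and 3 higher after HT + SEA (median 0.58), 0 oligodendrocyte and 0 red cell markers were called after HT, and 4 of the 9 of pituitary and epithelium were called lower after HT. These counts turned on other libraries too. Of the ciliated markers, 0 were called after HT without NC replicate 2 or HT replicate 3 and 5 without HT replicate 2, while after HT + SEA 0 were called without HT replicate 3 and 1 without HT + SEA replicate 1. After HT + EA 5 were called higher without HT replicate 2 and 3 without HT + EA replicate 1. The part of these cells in the CEA values was not tested.

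The 5 neuron markers summed to 103195 to 117089 CPM in the PVN and 138021 to 162804 CPM in the CEA, a difference opposite to that of miR-7a-5p. The 3 oligodendrocyte markers also differed in the opposite direction with no overlap, at 1795 to 3236 CPM in the PVN and 3904 to 7916 CPM in the CEA. The 5 markers of ciliated ependyma and choroid plexus differed in the same direction as miR-7a-5p, with sums of 2371 to 4101 CPM in the PVN (median 2847) and 196 to 1173 CPM in the CEA (median 680), and so did those of pituitary and epithelium (118 to 265 and 27.0 to 93.8 CPM). The part of any of these cells in the difference between the nuclei was not tested.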

How the data were processed

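Small RNA libraries were prepared with a NEBNext kit from 24 samples and the authors deposited raw read counts for each miRNA, without normalization. HISAT2 and featureCounts are named for the sequencing as a whole, and the submitters' processing notes list GRCh38 and hg38, which are human builds, whereas the study's methods name the rat assembly mRatBN7.2. How the miRNA reads were counted is not given in the sources used here. A further 24 columns of scaled values were not used.

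Sample titles gave the nucleus and treatment of each library. Counts were tested with edgeR 4.0.16 (R 4.3.3, limma 3.58.1), with TMM scaling and glmQLFit with glmQLFTest. A miRNA needed 1 count in the 6 libraries of a comparison (12 for interactions), and the code was checked on simulated counts. CPM are counts scaled to a library total of 1000000, with 0.5 added to each count on the log2 scale. Standard errors are the log2 fold change over the square root of F. In HT against NC of the PVN the prior had 478 degrees of freedom against 4 from the libraries, so the spread is nearly that of all miRNAs. Correlations were computed in pandas 2.3.3 and Wilson intervals in scipy 1.17.1. Likeness was ranked by Spearman's rho with miR-7a-5p among known miRNAs of at least 10 CPM, and the first 5 are named. The members, lists and tests were chosen with earlier results of these data known.

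Across 366 miRNAs, the deviations of same-numbered libraries correlated over 0.1 in all 3 pairs for HT + EA against HT in the PVN (0.15 to 0.33) and HT against NC in the CEA (0.22 to 0.51). The main fits of both comparisons carried no block. A replicate block was run as an alternative, and its values for miR-7a-5p stand beside those of the unblocked fits. Lists and markers were taken from the unblocked fits only. Same-numbered PVN and CEA libraries of 1 treatment also correlated over 0.1 in all 3 pairs in NC (0.14 to 0.30), HT + EA (0.19 to 0.23) and HT + SEA (0.17 to 0.65), but not in HT (-0.11 to 0.05). Alternatives were DESeq2 1.42.0, other scalings and filters, a robust spread, all groups of the nucleus, the replicate block, and leaving out each library. Leaving out each library for the lists and markers was chosen after seeing the data.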

Additional observations from a re-analysis of the deposited data

How the results depend on the processing

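The number of members called, 0 in each comparison, became 1 for HT against NC in the PVN with all 12 libraries of the nucleus in the fit, which also raised the calls over all miRNAs from 107 to 133, and ranged from 0 to 1 over the fits without 1 library. For HT + EA against HT in the PVN and for the nucleus difference of HT against NC it also ranged from 0 to 1 over those fits, and for HT against NC in the CEA from 0 to 2. With an adjusted p under 0.05 in place of the unadjusted p and all libraries kept, no member was called. The cause of these changes was not tested. Of 672 alternatives to the 44 fold changes, 12 were called, all in their first direction, and 81, from 31 fold changes, had the other sign and were not called. Leaving out 1 library, miR-7a-5p changed in the PVN by -0.055 to 0.142 on the log2 scale for HT + SEA against HT. In the CEA it ranged from -0.13 to 0.42 for HT against NC, -0.10 to 0.33 for HT + EA against HT, -0.11 to 0.39 for HT + SEA against HT and, between HT + EA and HT + SEA, -0.16 to 0.20. That of miR-7b for HT against NC in the PVN ranged from -0.033 to 0.134. The nucleus difference of miR-7a-5p ranged from -0.12 to 0.31 for HT + EA against HT and from -0.36 to 0.11 for HT + SEA against HT, and the first was -0.057 with library totals in place of TMM. Library totals moved the median of all miRNAs by 0.14 for HT + EA against HT in the CEA, and by 0.19, -0.11 and -0.12 in the 3 nucleus differences.

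With the replicate block, 1 member, miR-7a-5p, was called for HT against NC in the PVN (-0.16, adjusted p = 0.45 by edgeR) and 1 for HT + EA against HT. In 6 of the 8 comparisons the libraries share only a number (correlations from -0.30 to 0.44), HT against NC in the PVN among them (-0.02 to 0.08). The block changed no other call of a member.

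All 164 alternatives to the nucleus differences and ratios moved them by less than the SD within groups, pooled over both nuclei for the differences (0.29 for miR-7a-5p, 0.26 for miR-7b). With totals without the 10 most abundant miRNAs, miR-7a-5p moved to 2.24 and miR-7b to 1.98, by more than their SD within PVN groups (0.11 and 0.16). miR-7a-5p stayed between 1.99 and 2.24 on the log2 scale, miR-7b between 1.73 and 1.98, miR-7a-2-3p between 0.998 and 1.29 and miR-7a-1-3p between -0.67 and -0.42. The number of all miRNAs called depended on the tool, the filter and single libraries. For HT against NC it was 107 in the PVN and 65 with filterByExpr, and 38 in the CEA and 7 with DESeq2. For HT + SEA against HT it was 83 in the PVN and 47 with filterByExpr, and 47 in the CEA and 11 with filterByExpr. For HT + EA against HT + SEA it was 71 in the PVN and 45 with all 12 libraries, and 23 in the CEA and 8 with DESeq2. For HT + EA against HT in the CEA it was 53 and 22 with filterByExpr. In the 3 nucleus differences it was 53, 20 and 28, and 13, 6 and 11 with DESeq2. Over the fits without 1 library it ranged from 25 (without HT + SEA replicate 3) to 94 for HT + SEA against HT in the PVN. In the CEA it ranged from 18 to 66 for HT against NC, 25 to 70 for HT + EA against HT, 17 to 58 for HT + SEA against HT, and 15 to 37 between HT + EA and HT + SEA, and in the nucleus differences from 34 to 74, 14 to 50 and 20 to 55.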
